A study of Mus musculus with 18 samples.

Results

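The nuclear genes of the mitochondrial respiratory chain were examined in mouse limb buds, the embryonic swellings of mesenchyme under an ectodermal sheet from which limbs grow. Members were taken by gene symbol: Nduf genes for complex I, Sdh for complex II, Uqcr for complex III, Cox4 to Cox8 for complex IV and Atp5 for complex V. The rule found 76 genes of the 14686 listed in any of the 3 deposited tables, and all 76 were listed in each table. Complex I held 36 of them, complex II 4, complex III 8, complex IV 11 and complex V 17. By name the rule also took in Atp5s and Atp5sl, which are not subunits of the enzyme, Cox7a2l, a factor of respiratory supercomplexes, and Ndufa4, which was first assigned to complex I and is now placed with complex IV. It missed Cox4i1, Cox4i2, Cyc1, Cycs and Ndufab1. Values of Cox4i1, Cyc1 and Cycs are given apart.

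RNA was measured in 6 groups of 3 libraries. CD1 wild type forelimb buds at e10.5 (e marks the embryonic day) were compared with CD1 wild type hindlimb buds at e11.0, stages matched by limb shape, so a difference by limb and a difference by age cannot be told apart. Hindlimb buds of Pitx1 null embryos were compared with Pitx1 wild type hindlimb buds at e11.0 and again at e11.5, all 4 of these groups labelled BALB/c. Pitx1 is a homeodomain transcription factor of the hindlimb, and the labels call the mutant null or knockout without naming the allele, so which part of the gene was removed was not given in the sources used here. The labels give no sex, litter or pooling of embryos and do not say that replicates were separate litters, so each p-value rests on the spread between the deposited libraries, which may be technical. Every library is a whole bud, and in such bulk samples fewer cells of a type and less RNA per cell cannot be told apart.

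The respiratory chain sits in the inner mitochondrial membrane. Complexes I and II take electrons from NADH and succinate, complex III passes them to cytochrome c, and complex IV hands them to oxygen. Complexes I, III and IV pump protons, and complex V, the ATP synthase, lets the protons flow back to make ATP. All complexes but complex II mix subunits encoded in the nucleus with subunits encoded in mitochondrial DNA. The factors NRF1, GABP (an ETS protein) and YY1 are known regulators of many of the nuclear genes.

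Promoter sequences show how such motifs lie in front of these genes. Promoters, 250 bases before to 50 after the start, were found in RefSeq (GRCm38.p6) for 66 of the 76 members, and 10 of the 12 members that were higher in Pitx1 null hindlimb at e11.0 were among them. The 5 stretches printed are 60 bases on the gene's strand, with the motif in capitals as it reads on that strand. Uqcrh and Sdhd are the members higher at e11.0 that carry the ETS motif CCGGAAG, here in its reverse complement. Cox6a1 and Atp5k carry the NRF1 palindrome and Atp5sl the YY1 motif, in which 1 letter, the G after the leading pair of As, was left free in the search, and these 3 were not higher there. They lie at chr4:116075071-116075130 (minus strand) for Uqcrh, chr9:50603863-50603922 (minus) for Sdhd, chr5:115349086-115349145 (minus) for Cox6a1, chr5:108434415-108434474 (minus) for Atp5k and chr7:25619415-25619474 (plus) for Atp5sl, in each case upstream of the RefSeq start. GENCODE M21 places some starts differently. There Atp5sl starts at chr7:25619414, so its stretch lies inside the gene. The Atp5k stretch lies partly inside (gene start at chr5:108434448), and the Uqcrh stretch ends on the first base of its gene.
Uqcrh: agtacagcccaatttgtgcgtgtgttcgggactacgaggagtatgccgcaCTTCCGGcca
Sdhd: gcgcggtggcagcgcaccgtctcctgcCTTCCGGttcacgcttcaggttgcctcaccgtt
Cox6a1: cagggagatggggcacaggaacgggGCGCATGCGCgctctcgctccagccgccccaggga
Atp5k: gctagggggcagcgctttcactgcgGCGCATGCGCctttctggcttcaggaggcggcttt
Atp5sl: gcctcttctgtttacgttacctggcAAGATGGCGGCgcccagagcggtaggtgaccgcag

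The first base of the motif lies 10 bases before the start in Uqcrh, 46 in Sdhd, 162 in Cox6a1, 50 in Atp5k and 53 in Atp5sl. The ETS motif was in 16 of 66 member promoters (24.2%), against 9.9% of all 27025 promoters and 19.9% of the 9565 promoters of genes listed at e11.0. Cox6a1 and Atp5k, shown for the NRF1 motif, are also among these 16, and of the 16 only Sdhd and Uqcrh were higher at e11.0. The NRF1 motif was in 5 of 66 (7.6%), against 1.1% of all promoters and 2.4% of those of listed genes: Atp5g2, Atp5k, Cox6a1, Ndufa11 and Uqcrc1. The YY1 motif was in 5 of 66 (7.6%), against 1.2% and 2.8%: Atp5sl, Ndufa9, Ndufs4, Ndufs6 and Ndufs7. Among the 10 members higher at e11.0 with a promoter, 0 had the NRF1 motif, 2 the ETS motif (Sdhd and Uqcrh) and 2 the YY1 motif (Ndufs4 and Ndufs6). Both strands were searched, and matches of different motifs overlapped in 0 members. A match is a stretch of letters and not a measured binding site.

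The libraries held 24503895 to 45046659 reads on listed genes in the CD1 table, 17381522 to 44153230 at e11.0 and 30241262 to 53611914 at e11.5. Libraries of e10.5 and e11.0 were made by ribosomal RNA depletion and those of e11.5 by mRNA enrichment, and each table was normalized on its own, so levels in different tables stand side by side and were not tested. Replicate 3 of each group came from another sequencing run than replicates 1 and 2, or from a run not named (CD1). Pitx1 itself was at 136, 114 and 122 CPM (a gene's reads scaled to a common library total, so that 1 CPM was 17.4 to 53.6 reads here) in wild type hindlimb at e11.0 and at 22.9, 19.3 and 21.3 in the null, so every null library was below every wild type library while reads remained in the null. All 14 limb mesenchyme markers were listed in each table. Cell type markers moved too at e11.0: 8 of 12 endothelial markers, 4 of 5 muscle precursor markers and 6 of 14 limb mesenchyme markers were lower in the null, and 6 of 14 surface ectoderm markers were higher. With the block these counts were 9, 5, 7 and 8. The summed level of the endothelial list was 228 to 315 CPM in wild type and 144 to 241 in null, and that of the ectoderm list 398 to 960 and 518 to 1140. The mesenchyme list summed to 1710 to 2130 in wild type and 1290 to 1690 in null, and 13 listed erythroid markers, of which Hbb-bs was higher, to 4950 to 11400 and 6250 to 18000. The part of these cell types in the results on the respiratory chain was not tested.

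The 76 genes together took 0.898% to 1.07% of reads in the CD1 libraries, 1.01% to 1.24% at e11.0 and 0.874% to 0.981% at e11.5. Per length of mRNA, the beta and alpha subunits of the ATP synthase head stood above all others in the CD1 and e11.5 tables. Atp5b, the catalytic beta subunit, averaged 791 CPM per kilobase in the CD1 table, 670 at e11.0 and 711 at e11.5. Atp5a1, the alpha subunit, averaged 528, 386 and 474. At e11.0, Uqcrh, the small hinge protein of complex III, reached 632 CPM per kilobase, Ndufa4 592, Cox7a2 447 and Cox6c 421, all above Atp5a1 there. In complex II, whose 4 subunits are all nuclear, Sdhb, the iron-sulfur subunit, led in the CD1 and e11.5 tables with 115 and 105 CPM per kilobase. Sdhd, a membrane anchor, led at e11.0 with 147. The lowest values were those of Atp5s with 2.15, 2.78 and 2.53 CPM per kilobase. Ndufb4, an accessory subunit of complex I, was also low, with 14.6, 21.7 and 5.37, although other subunits of the same complex stood far higher.

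Replicate 3 raised the e11.0 averages of several small subunits. Cox7a2, a small subunit of complex IV, was at 179 and 211 CPM in wild type replicates 1 and 2 and at 412 in replicate 3, and at 231, 224 and 511 in the null. Cox6c, another of its small subunits, was at 158, 202 and 355 and then 201, 203 and 412. Ndufa4 was at 190, 225 and 332 and then 229, 234 and 424. In all 3 genes both replicate 3 libraries lay above the 4 others. Atp5b showed no such step, with 1340, 1290 and 1290 CPM in wild type and 1240, 1220 and 1320 in the null, and its groups overlapped.

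**Figure D1:**
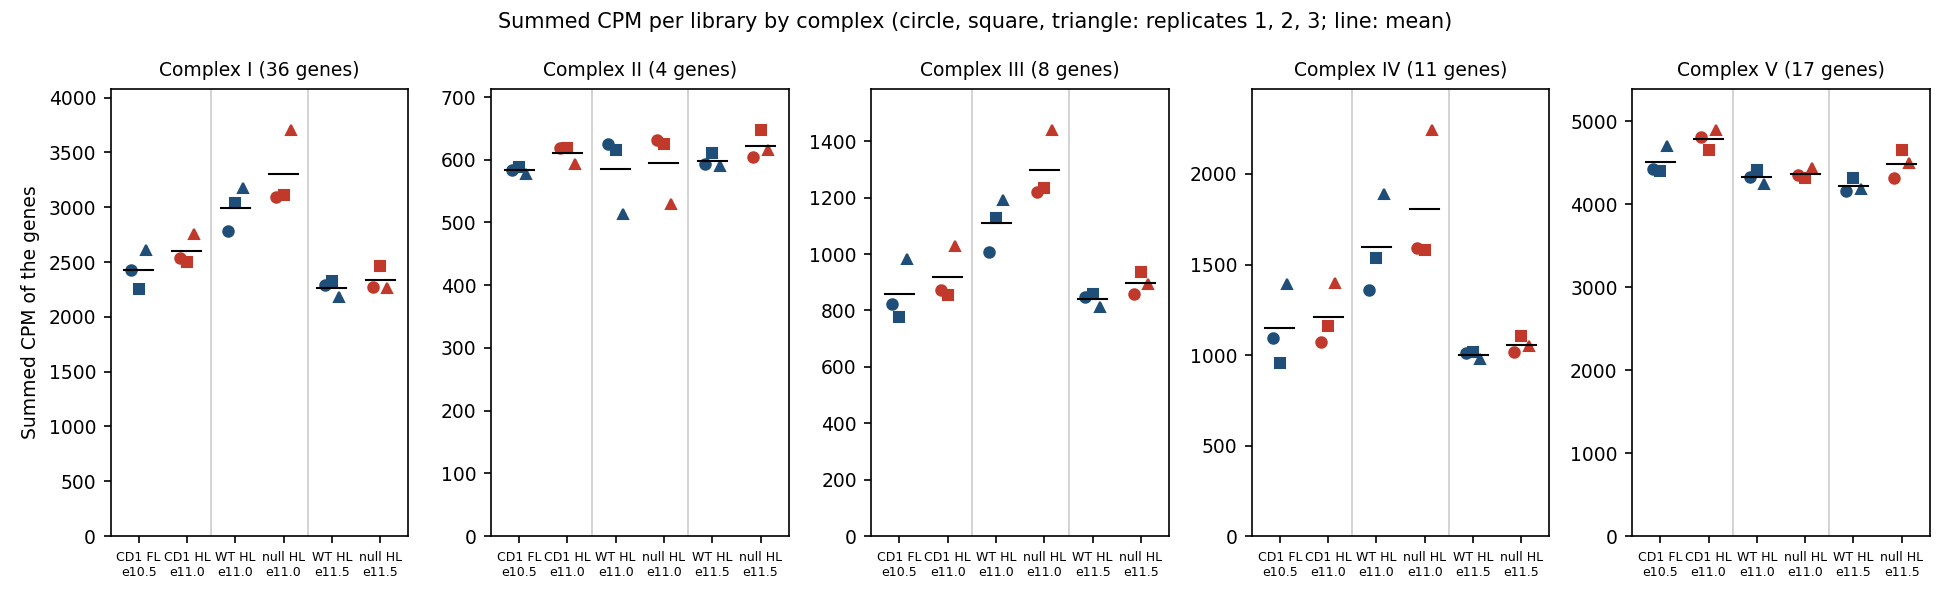
Summed CPM of the genes of each complex in each library (y axis, from 0) for the 6 groups (x axis; FL forelimb, HL hindlimb, WT wild type), with circles, squares and triangles for replicates 1, 2 and 3, a line for the mean and vertical lines between the 3 tables. Complex V sits at 4158 to 4900 in all 18 libraries. Complexes III and IV are highest in null replicate 3 of the e11.0 table, at 1441 and 2245.

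Summed over a complex, the null libraries at e11.0 exceeded their same-numbered wild type libraries most in complex III, by ratios of 1.21, 1.09 and 1.21 for replicates 1, 2 and 3. Complex IV gave 1.17, 1.03 and 1.19 and complex I 1.11, 1.02 and 1.17. Complex II gave 1.01, 1.01 and 1.03, and complex V 1.0, 0.98 and 1.05. These sums are descriptions with no test, and in every complex the ratio was smallest or equal smallest for replicate 2.

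Isoforms of the same subunit were far from equal, as shares of their summed CPM per kilobase show. The c subunit, which forms the rotating ring of the ATP synthase, is encoded by Atp5g1, Atp5g2 and Atp5g3 with the same mature protein. Atp5g3 held 63.4% to 77.5% of the c subunit signal in the CD1 libraries, 66.8% to 72.9% at e11.0 and 83.0% to 85.2% at e11.5. Atp5g1 held 2.88% to 6.85% over all 18 libraries. That share rests on its annotated mRNA length of 2675.5 bases, against 586 for Atp5g2 and 718.5 for Atp5g3. In CPM not divided by length, Atp5g1 averaged 64.5 in CD1, 46.6 at e11.0 and 41.9 at e11.5. Atp5g2 averaged 52.7, 46.5 and 36.6. Of Atp5g2's 50-base windows, 87.4% also occur in another annotated gene, so reads of its mRNA could be split or lost in counting. For subunit 6B of complex IV, the general isoform Cox6b1 held 91.8% to 99.1% and Cox6b2, known for its testis expression, the rest. The muscle and heart isoforms Cox6a2, Cox7a1 and Cox8b were not among the genes analysed here.

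At e11.0, the comparison of Pitx1 null with wild type hindlimb asked how expression differs with and without Pitx1. Of the 76 members, 12 were higher in the null and 0 lower (limma, adjusted p under 0.05 over 14027 genes), which is 15.8% of members against 13.1% of all genes called in either direction, 4.73% higher and 8.41% lower. They were 6 accessory subunits of complex I (Ndufa2, Ndufa5, Ndufa6, Ndufb5, Ndufs4 and Ndufs6), the membrane anchor Sdhd of complex II, the small subunits Uqcrb and Uqcrh of complex III, and the small subunits Cox7a2, Cox7b and Cox7c of complex IV. None of the 17 complex V genes passed. Of the 12, Uqcrb, Ndufs4, Ndufs6 and Cox7c lie on chr13, the chromosome of Pitx1. Sdha and Uqcrfs1 also lie there and did not pass. Null and wild type embryos may differ in DNA linked to the allele, and the part of such DNA in these values was not tested. At an unadjusted p under 0.05, 30 members were higher and 7 lower, against 1554 higher and 3392 lower among all 14027 genes.

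The count of calls depended on the fit. Blocking on the replicate number gave 24 members higher and 1 lower (25 calls, with 24.5% of all genes called). Trimmed-mean scaling gave 25 higher and 0 lower, and it also turned the calls over all genes from 664 higher and 1179 lower to 1141 higher and 453 lower. The authors' deposited table has 34 members higher and 0 lower at its adjusted p under 0.05, where 12.2% of all genes were higher, 8.47% lower and 20.6% either. With no term for the run the count was 0, and in replicates 1 and 2 alone it was also 0. Leaving out wild type replicate 1 or 3 or null replicate 3 gave 0 calls. Leaving out null replicate 1 or 2 gave 2 or 1, and leaving out wild type replicate 2 gave 42 (38 higher, 4 lower). The share of all genes called without a library is not given here, so these counts cannot be set against it.

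Uqcrb encodes the ubiquinone-binding small subunit of complex III (chr13:66900617-66905378, minus strand, GRCm38). It had 88.6, 107 and 117 CPM in wild type replicates 1, 2 and 3 and 136, 138 and 179 CPM in the null. Every null library was above every wild type library. Its log2 fold change was 0.52 ± 0.08 (SE; limma adjusted p = 0.00542), the largest among members in this comparison. Of its 50-base windows, 43.4% also occur in another annotated gene.

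Uqcrh (chr4:116066965-116075071, minus strand), whose promoter stretch is shown above, had 194, 227 and 378 CPM in wild type and 256, 253 and 491 in the null. Replicate 3 was the highest library in both groups, so the groups overlapped, but each null library exceeded its same-numbered wild type library. The log2 fold change was 0.31 ± 0.07 (limma adjusted p = 0.028). The other small subunits of complex III, Uqcr10, Uqcr11 and Uqcrq, had log2 fold changes of 0.26, 0.21 and 0.11 and did not pass, though Uqcr10 and Uqcr11 passed with the block (limma adjusted p = 0.0274 and 0.0407). The core protein Uqcrc1 had a log2 fold change of -0.17 and the core protein Uqcrc2 one of 0.23, neither past the threshold, while the latter passed with the block (limma adjusted p = 0.0294).

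**Figure D2:**
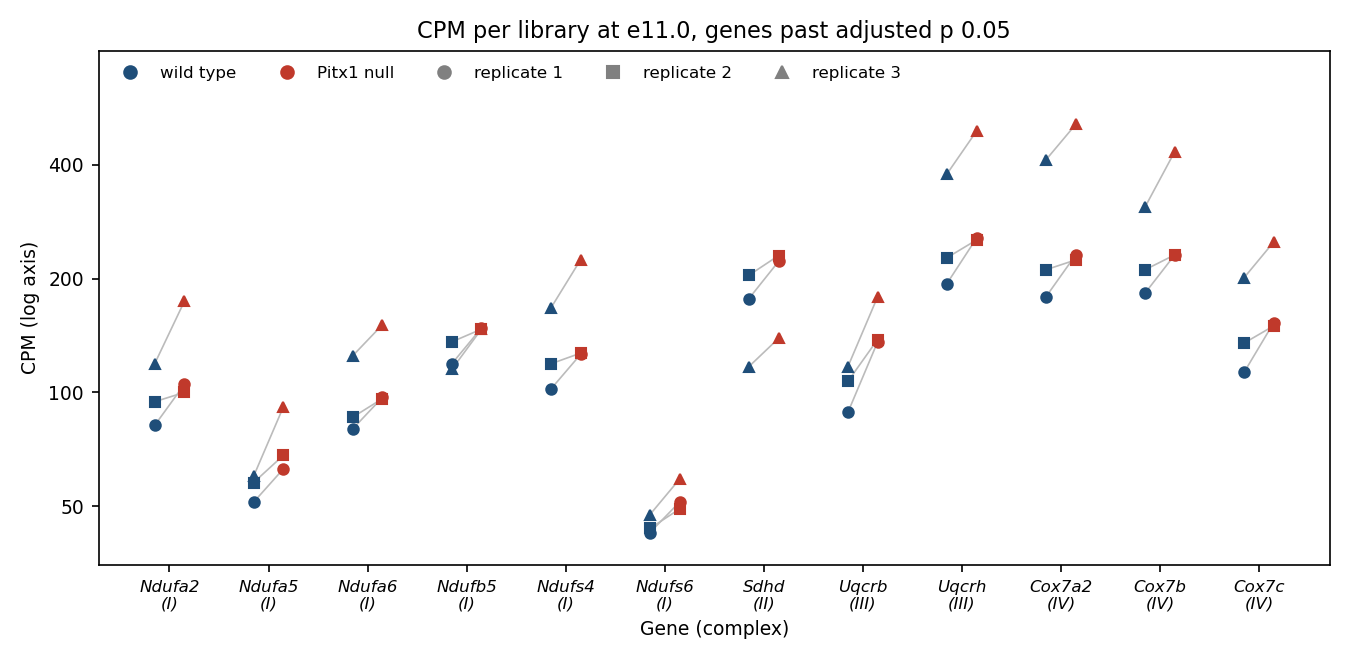
CPM (log axis) of the 12 genes past an adjusted p of 0.05 at e11.0, with blue for wild type, red for Pitx1 null, a marker shape for each replicate and grey lines between same-numbered libraries. Every line rises from wild type to null, and in 10 of the 12 genes replicate 3 is the highest library of both groups.

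In complex I, Ndufa5, an accessory subunit of the peripheral arm (chr6:24518666-24528013, minus strand), had 51.3, 57.8 and 60.1 CPM in wild type and 62.8, 68.2 and 91.6 in the null. The groups did not overlap, and the log2 fold change was 0.38 ± 0.09 (limma adjusted p = 0.0276). Ndufb5, a membrane arm subunit, had 119, 136 and 115 CPM in wild type and 148, 147 and 147 in the null, and Ndufs6, needed for the last steps of assembly, had 42.6, 43.7 and 47.5 and then 51.3, 49.2 and 59.0. In both the groups were apart, with log2 fold changes of 0.26 and 0.25. Ndufa2 (0.33), Ndufs4 (0.27) and Ndufa6 (0.23) were higher in each same-numbered pair with groups that overlapped.

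The 7 core subunits of complex I in the nuclear genome carry the flavin and the iron-sulfur clusters. Their log2 fold changes ran from -0.16 to 0.24 and 0 of 7 passed. With the block 2 of 7 were higher, Ndufs8 and Ndufv2. Ndufv1, the flavoprotein that binds NADH, was lower in every pair and did not pass (log2 fold change -0.16). Among the 28 accessory subunits the median was 0.153, with 6 higher and, with the block, 9 higher and 1 lower. That one was Ndufa10, at 112, 102 and 106 CPM in wild type and 91.8, 85.9 and 94.3 in the null. Its log2 fold change was -0.23 ± 0.07, with a limma adjusted p of 0.0515 and, with the block, 0.0209. Ndufa4, counted apart from these subunits, was at 0.23 ± 0.08, with a limma adjusted p of 0.0771 and, with the block, 0.0377.

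In complex II the membrane anchors had values of opposite sign. Sdhd (chr9:50596357-50603812, minus strand) had 177, 204 and 117 CPM in wild type and 222, 230 and 139 in the null, so replicate 3 was lowest in both groups and each pair was higher in the null (log2 fold change 0.24 ± 0.07, limma adjusted p = 0.0473). Sdhc, the other anchor, had 108, 106 and 101 CPM in wild type and 92.7, 94.8 and 93.3 in the null. Its groups did not overlap, and at -0.16 ± 0.06 it did not pass (limma adjusted p = 0.108). The catalytic flavoprotein Sdha had a log2 fold change of -0.06.

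In complex IV, Cox7b (chrX:106015700-106022450, plus strand) had 183, 211 and 309 CPM in wild type and 231, 231 and 433 in the null, a log2 fold change of 0.32 ± 0.08 (limma adjusted p = 0.032). Cox7c was at 0.30 and Cox7a2 at 0.25 on the same scale, both higher in 3 of 3 pairs. Cox6a1 and Cox6b1, the general isoforms of subunits 6A and 6B, did not pass, at -0.08 and 0.07. Of the 10 nuclear subunits of complex IV, 3 were higher, with or without the block.

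In complex V 0 of 17 genes passed, and with the block Atp5c1 of the head, Atp5g1 of the c ring and Atp5j2 of the membrane part were higher. Complex V genes also passed in other fits, 4 with trimmed-mean scaling and 3 with the exon length correction, both with Atp5f1 of the stalk, and 6 in the authors' deposited table. In the F1 head, 4 of 5 log2 fold changes were below 0, and the alpha subunit Atp5a1 was at 1090, 1020 and 1030 CPM in wild type and 941, 922 and 951 in the null. Those groups did not overlap, and the log2 fold change of -0.16 did not pass (limma adjusted p = 0.128). The beta subunit Atp5b was at -0.05 ± 0.07. Under trimmed-mean scaling Atp5b (0.03) and Atp5e (0.07) turned to values above 0, and Atp5a1 was at -0.08. The c ring, the stalk and the small membrane subunits had medians of 0.078, 0.113 and 0.175.

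**Figure D3:**
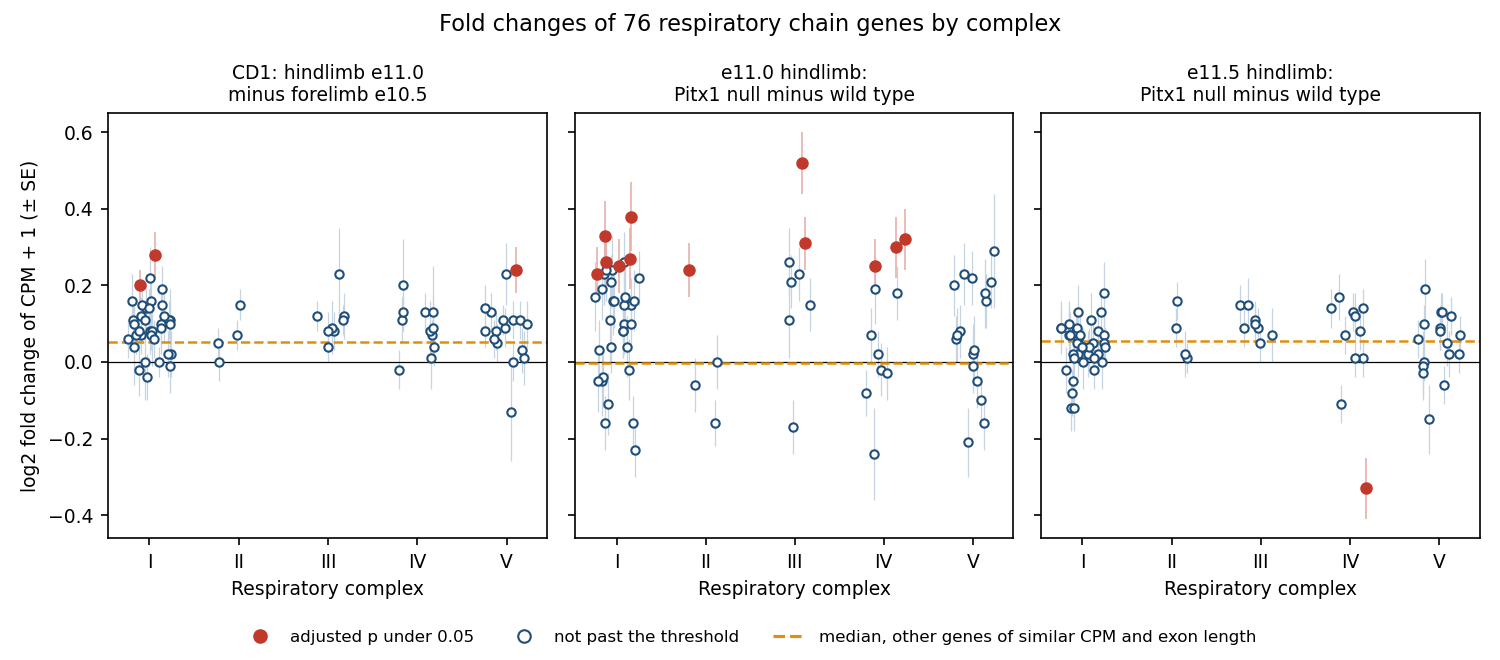
Log2 fold change of CPM + 1 (y axis, with SE bars) of the 76 genes by complex (x axis) in the 3 comparisons, with filled red points past an adjusted p of 0.05 and a dashed line at the median of other genes of similar CPM and exon length. The e11.0 panel holds 12 filled points, all above 0 and none in complex V, against 3 in the CD1 panel and 1, below 0, in the e11.5 panel.

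Because the members are short, they were set beside genes of like level and length. The median mRNA length of members was 746.25 bases, against 2803 over all genes of the e11.0 table. The median log2 fold change was 0.150 for members and -0.073 for all genes. Other genes of similar mean CPM (23.4 to 269) had a median of -0.092, and those that also matched in merged exon length (705 to 4130.5 bases) had -0.003, with 16.9% of 2165 called and 11.3% called higher. Among the 25 members of shortest mRNA (321.5 to 595 bases) the median was 0.175, and among 64 other genes of the same CPM and mRNA length it was also 0.175. For 26 members of 599 to 1046 bases it was 0.092, below the 0.139 of 350 other genes. For 25 members of 1102.5 to 2900 bases it was 0.078, and 2433 other genes had -0.041. With a smooth trend of each library on exon length removed, 14 members were higher and 0 lower, 8 of them among the 12. The share of all genes called in that fit is not given here. The members' median was 0.107 (0.035 for the similar genes). Of the 12, the 4 that no longer passed were Ndufa2 (limma adjusted p = 0.0859), Ndufs6 (0.126), Sdhd (0.0742) and Cox7a2 (0.103).

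**Figure D4:**
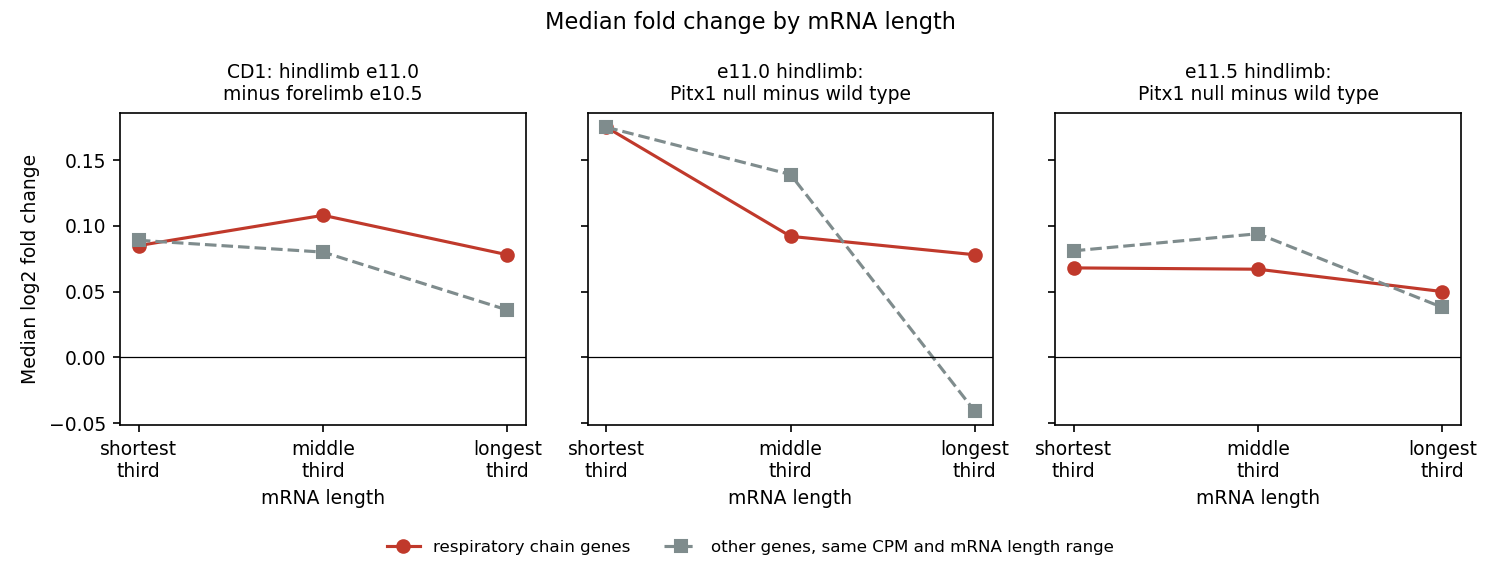
Median log2 fold change (y axis) of the respiratory chain genes in 3 classes of mRNA length (red circles) and of other genes in the same CPM and mRNA length range (grey squares) for the 3 comparisons. At e11.0 both lines start at 0.175 in the shortest class, and in the longest class the grey point is at -0.041 and the red point at 0.078.

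The pairs of e11.0 libraries differed in how far members lay above 0. The median over members was 0.168 in pair 1, 0.032 in pair 2 and 0.173 in pair 3. In all 3 pairs 39 members were higher in the null (51.3%, against 19.2% of all genes) and 11 lower (14.5%, against 39.2%). Among the 2165 other genes of similar CPM and exon length 31.6% were higher and 32.5% lower in all 3 pairs. Groups that did not overlap were found for 9 members upward (11.8%, against 4.78%) and for 6 downward (7.89%, against 13.7%).

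In CD1 embryos, hindlimb buds at e11.0 were compared with forelimb buds at e10.5. Of the 76 members, 3 were higher in hindlimb and 0 lower, which is 3.95% against 5.87% of 13540 genes called in either direction, 2.41% higher and 3.46% lower. Ndufs8, a core subunit that carries iron-sulfur clusters (chr19:3908863-3912774, minus strand), had 39.4, 38.5 and 52.4 CPM in forelimb and 48.8, 50.6 and 58.9 in hindlimb. Each hindlimb library exceeded its same-numbered forelimb library, with a log2 fold change of 0.28 ± 0.06 (limma adjusted p = 0.0152). Ndufb8, a membrane arm subunit, had 150, 145 and 102 CPM in forelimb and 168, 165 and 121 in hindlimb (0.20 ± 0.04, limma adjusted p = 0.0232). Atp5e, the epsilon subunit of the ATP synthase head, had 61.3, 63.8 and 95.7 and then 80.5, 76.5 and 102 (0.24 ± 0.06, limma adjusted p = 0.0405).

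With the replicate block only Ndufs8 passed (limma adjusted p = 0.0373), while Ndufb8 (0.0589) and Atp5e (0.0803) did not. The count was 0 with no run term, without forelimb replicate 2 and without hindlimb replicate 1 or 2, and 7 without forelimb replicate 1. The shares of all genes called in these fits are not given here. The authors' deposited table has 5 members higher and 0 lower at its adjusted p under 0.05, the further 2 being Ndufb10 and Sdhb, against 4.75% of all genes higher there, 7.73% lower and 12.5% either. Of the markers, 4 of 12 listed erythroid ones were higher in hindlimb, with a summed level of 3840 to 3950 CPM in forelimb and 3920 to 5210 in hindlimb. Of the mesenchyme markers 7 of 14 were lower (5 with the block) and 1 higher, with sums of 2190 to 2820 and 2020 to 2470 CPM, and their part in the result was not tested.

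Small shifts in one direction were common among members in CD1. Fold changes were above 0 for 70 of 76 (92.1%, against 51.8% of all genes), and 44 members were higher in all 3 pairs (57.9%, against 22.6%) with 0 lower in all 3 (against 19.6%). Of the genes of similar CPM and exon length, 36.4% were higher and 7.8% lower in all 3 pairs. The median log2 fold change was 0.094, against 0.006 for all genes, 0.008 for genes of similar CPM and 0.053 for the 1924 genes that also matched in exon length. Of those 1924, 71.2% were above 0. With the trend on exon length removed the members' median was 0.055 and that of the similar genes 0.022, and Atp5e no longer passed (limma adjusted p = 0.11). Groups that did not overlap were found for 7 members upward (9.21%, against 5.87%) and 0 downward (against 5.32%). Sdhb, the iron-sulfur subunit of complex II, was at 124, 124 and 125 CPM in forelimb and 141, 139 and 136 in hindlimb. Its groups were apart, and at 0.15 ± 0.04 it did not pass (limma adjusted p = 0.0688). Ndufb10, a membrane arm subunit of complex I, was at 38.9, 35.6 and 40.8 and then 44.4, 42.6 and 44.4, also apart (0.19 ± 0.06, limma adjusted p = 0.0911). All 5 genes of the ATP synthase head were higher in every pair, Atp5b at 1480, 1530 and 1410 CPM in forelimb and 1650, 1560 and 1460 in hindlimb (0.08 ± 0.05, not past the threshold). Fold changes ranged from -0.13 (Atp5s) to 0.28, and the complex medians lay between 0.060 for complex II and 0.099 for complex III.

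At e11.5, 0 members were higher in Pitx1 null hindlimb and 1 was lower (1.32%, against 10.8% of 13478 genes called in either direction, 2.83% higher and 7.96% lower). Cox6b2 (chr7:4751792-4753094, minus strand) had 6.13, 5.38 and 10.6 CPM in wild type and 4.2, 4.39 and 8.54 in the null. Replicate 3 was highest in both groups, and each null library was below its same-numbered wild type library. The log2 fold change was -0.33 ± 0.08 (limma adjusted p = 0.0406). At its low level of 6.54 CPM the call did not hold when genes under a mean of 5 CPM were left out first, and it was lost without any 1 of the 6 libraries. Cox6b1, the general isoform, was at 0.01 ± 0.05.

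The highest members at e11.5 did not pass either. Atp5b was at 1270, 1290 and 1330 CPM in wild type and 1360, 1420 and 1500 in the null, with groups apart and a log2 fold change of 0.13 ± 0.05 (limma adjusted p = 0.105). Atp5g3, the main c subunit gene, was at 272, 290 and 289 and then 288, 318 and 324 (0.13 ± 0.05, limma adjusted p = 0.151). Atp5g1 had the largest positive value, 0.19 ± 0.08, with 36.1, 38.1 and 42.6 CPM in wild type and 36.3, 44.2 and 54.3 in the null, and its groups overlapped. The complex medians lay between 0.044 for complex I and 0.096 for complex III, and all 7 core subunits of complex I were above 0, at 0.01 to 0.13.

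Without null replicate 1, 11 members were higher at e11.5 and 0 lower. The share of all genes called in that fit is not given here. With all libraries and an unadjusted p under 0.05, 10 of the 76 members were higher and 1 lower. Among all 13478 genes 1529 were higher and 2514 lower at that threshold. Over all genes, trimmed-mean scaling changed the calls from 382 higher and 1073 lower to 633 higher and 964 lower, and median-ratio scaling to 743 and 919, with 1 member higher and 0 lower under the latter. The authors' deposited table has 7 members higher (Sdhd, Cox7c, Atp5g1, Cox8a, Uqcrb, Cox5a and Cox7b), against 8.73% of its genes, and Cox6b2 lower, against 10.9% (19.6% either). The median log2 fold change was 0.065, against -0.022 for all genes and 0.056 for the 1949 genes of similar CPM and exon length. In all 3 pairs 31 members were higher (40.8%, against 23.4%) and 8 lower (against 30.9%). Of the genes of similar CPM and exon length, 44.8% were higher in all 3 pairs, a larger share than of the members, and 18.2% lower. With the trend on exon length removed the median was 0.044 for members and 0.061 for those genes. Groups that did not overlap were found for 4 members upward (Atp5b, Ndufa4, Sdhd and Uqcr10, against 5.48% of all genes) and 1 downward (Ndufa3, against 11%). All 9 muscle precursor markers were lower in the null at this stage, with a summed level of 195 to 233 CPM in wild type and 117 to 149 in null. Of 14 mesenchyme markers 5 were higher and 0 lower (sums of 2540 to 3020 and 2380 to 3140 CPM), 2 of 12 endothelial and 2 of 8 macrophage markers were lower, and 1 of 14 ectoderm markers was higher (2 with the block). The part of these cell types in the members' values was not tested.

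The 12 members higher at e11.0 were followed into the e11.5 libraries, which are separate samples. Of the 12, 11 had a log2 fold change above 0 there and 6 were higher in all 3 pairs, with a range of -0.02 to 0.17 and a median of 0.107. The other 64 members had a median of 0.053 at e11.5. Over all 76 members 63 were above 0 at that stage (82.9%), and 40.8% were higher in all 3 pairs. Of other genes of similar CPM, 86.1%, 78.4% and 62.6% were above 0 in the shortest, middle and longest class of mRNA length. Their medians were 0.081, 0.094 and 0.038. Uqcrb was at 55.9, 56.2 and 44.8 CPM in wild type and 60, 61.8 and 51.9 in the null at e11.5 (0.15 ± 0.05, limma adjusted p = 0.0893). Sdhd was at 114, 116 and 105 and then 120, 132 and 124 (0.16 ± 0.05, limma adjusted p = 0.0826), with every null library above every wild type library. Ndufs4 was the one below 0, at 64.5, 65.7 and 53.4 and then 62.6, 66.2 and 52.0 CPM (-0.02 ± 0.05). The difference between the stages was not tested, because the tables were normalized separately and the libraries were made in different ways.

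Subunits encoded in mitochondrial DNA were counted beside the nuclear ones. At e11.0, 0 of 10 listed passed, with a median of 0.186. At e11.5, 5 of 10 were lower in the null (mt-Nd2, mt-Nd4, mt-Nd5, mt-Nd6 and mt-Cytb) with a median of -0.300. mt-Nd4, a proton-pumping subunit of complex I, was at 496, 539 and 839 CPM in wild type and 354, 373 and 715 in the null there (-0.42 ± 0.07, limma adjusted p = 0.00671). In CD1, 1 of 8 was lower in hindlimb, mt-Nd2, at 168, 108 and 121 CPM in forelimb and 81.5, 104 and 72.7 in hindlimb (-0.61 ± 0.14, limma adjusted p = 0.0359). mt-Co1 exceeded 1000 CPM in every library while mt-Co3 stayed under 20, and levels of these genes are not compared here.

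Of the nuclear electron carriers and subunits outside the name rule, Cycs, which encodes cytochrome c, was higher in the null at both stages. It had 104, 120 and 149 CPM in wild type and 154, 152 and 221 in the null at e11.0 (0.49 ± 0.07, limma adjusted p = 0.00511), with no overlap. At e11.5 it had 56.5, 58.1 and 55.3 and then 62.3, 72.6 and 76.9 (0.31 ± 0.07, limma adjusted p = 0.0317), again with no overlap. Cyc1, cytochrome c1 of complex III, and Cox4i1, the large nuclear subunit of complex IV, did not pass at either stage, at 0.08 and -0.16 at e11.0. Of the 9 listed subunits and carriers outside the rule that include them, 1 was higher at e11.0 and 3 with the block.

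Other mitochondrial lists were counted the same way. Of 41 listed assembly factors, 3 were higher in the null at e11.0 (Ndufaf4, Coa6 and Tmem70), 1 at e11.5 (Ndufaf6), and in CD1 hindlimb 1 was higher (Lyrm7) and 1 lower (Atpaf2), both lost with the block (limma adjusted p = 0.0727 and 0.084). At e11.0 the block gave 4 higher. Of 16 genes of the citric acid cycle and pyruvate dehydrogenase, 4 were higher (Pdha1, Sucla2, Dld and Fh1) and 1 lower (Ogdh) at e11.0, and 2 were higher at e11.5 (Pdha1 and Idh3a). With the block 2 were lower at e11.0. In CD1, 1 was lower in hindlimb, Pdha1 (-0.26 ± 0.05, limma adjusted p = 0.0144), and 0 higher. Pdha1, the alpha subunit of pyruvate dehydrogenase, was at 133, 140 and 109 CPM in wild type and 190, 188 and 122 in the null at e11.0 (0.36 ± 0.08, limma adjusted p = 0.0202).

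Of 14 regulators of mitochondrial biogenesis, 2 were lower in the null at e11.0, Ppargc1a, the coactivator PGC-1alpha, and Esrrg, and 0 were higher. With the block 4 were lower, Polrmt and Polg being added. In CD1, 1 was lower in hindlimb, Esrrg (-0.67 ± 0.15, limma adjusted p = 0.0327). Ppargc1a was at 6.02, 6.21 and 3.78 CPM in wild type and 2.66, 3.11 and 1.88 in the null at e11.0 (-0.83 ± 0.11, limma adjusted p = 0.00348), with no overlap. At e11.5 it was at 11.1, 10 and 9.58 and then 8.70, 7.67 and 3.75 (-0.61 ± 0.15, limma adjusted p = 0.0392), a call that the block took away (0.0513). Of 17 genes of glycolysis and hypoxia, 6 were lower in CD1 hindlimb than forelimb, among them Pdk1, Bnip3, Vegfa, Ldha and Pgk1, and 0 higher. At e11.0, 2 were lower in the null (Hk1 and Gpi1; 4 with the block), and at e11.5, 3 were higher (Eno1, Ldha and Pkm; 4 with the block) and 1 lower (Egln3).

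Ribosomal protein genes, also short and abundant, were counted as well. At e11.0, of 76 mitochondrial ribosomal protein genes 15 were higher and 0 lower in the null, and of 83 cytosolic ones 35 were higher and 0 lower, with medians of 0.122 and 0.232. With the block the counts were 25 higher and 1 lower, and 48 higher and 0 lower. At e11.5 the counts were 6 and 4 higher with 0 lower (7 and 6 higher with the block), and in CD1 0 of either passed. Their share in the members' results was not tested.

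Replicate 3 differed from replicates 1 and 2 for most members in all 3 tables. The run term passed for 50 members in CD1 (65.8%, against 61.2% of all genes), 42 at e11.0 (55.3%, against 46.8%) and 46 at e11.5 (60.5%, against 56.7%). In CD1 the difference reached a log2 value of at least 1 for 6 members. Atp5l, a small membrane subunit of the ATP synthase, was at 6.97, 6.2 and 54.4 CPM in forelimb replicates 1, 2 and 3 and at 6.72, 6.50 and 55.6 in hindlimb, so replicate 3 was 2.88 higher on the log2 scale, beside a limb difference of 0.01 ± 0.07. Uqcrq (2.20), Cox7c (1.45), Atp5g2 (1.41), Ndufb4 (1.30) and Ndufs5 (1.23) were the others.

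Those 6 members had a median of 30% of 50-base windows shared with another annotated gene, against 1.0% for the other members. Of the 76, 32 had no shared window and 17 had over 20%. Of the 12 members higher at e11.0, 5 had none and 2 had over 20% (Uqcrb and Cox7c). The rank correlation of shared windows with the size of the run difference was 0.35 in CD1, 0.07 at e11.0 and 0.18 at e11.5 over 76 genes, which share their libraries and are not independent. An exon overlapped a gene on the opposite strand in 23 members, 4 of them among the 12 (Ndufa2, Ndufb5, Ndufs6 and Uqcrb), and whether counting used strand was not given in the sources used here.

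**Figure D5:**
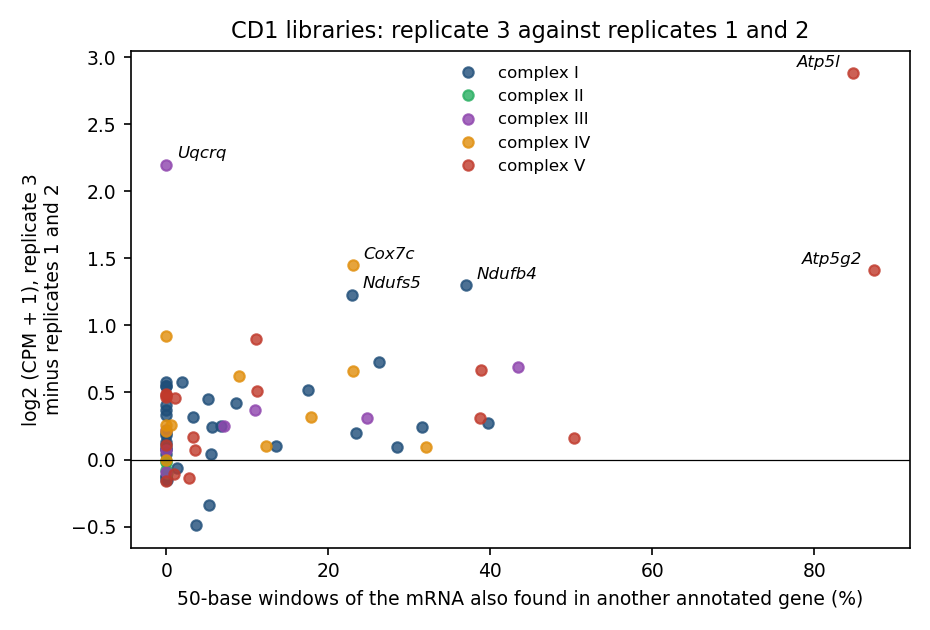
Difference of log2(CPM + 1) between replicate 3 and replicates 1 and 2 in the CD1 libraries (y axis) against the share of a gene's 50-base mRNA windows found in another annotated gene (x axis, percent), 1 point per gene, coloured by complex. Atp5l stands highest at 2.88 with 84.8% shared windows, and Uqcrq at 2.20 has none.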

How the data were processed

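RNA-seq of 18 limb bud libraries was analysed from 3 deposited tables. Reads were aligned with STAR, counted with featureCounts and compared with edgeR on GRCm38 (mm10), per the submitters' processing notes, with no versions. Each table gives CPM per library that the authors computed, with only genes above 0.5 CPM in at least 3 libraries listed. It also gives the authors' log2 fold change and log2 mean CPM, a likelihood-ratio score, a p-value and an adjusted p-value, per the file headers. Read totals per library were recovered from the CPM, which are whole multiples of 1 read within 0.01 read, and 1 read is worth at most 0.0575 CPM.

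Here log2(CPM + 1), a scale that understates changes of low genes, was fitted in each table alone with limma 3.58.1 (R 4.3.3; a trended prior), with terms for group and for run (replicate 3 against 1 and 2) and 3 residual degrees of freedom. The group difference was tested in 2-sided tests over all listed genes with Benjamini-Hochberg adjustment and a threshold of 0.05. Values with ± are a log2 fold change and its SE, with n = 3 libraries per group. The scripts were tested on simulated data. Same-numbered libraries deviated together (the correlations for numbers 1, 2 and 3 were 0.69, 0.80 and 0.94 in CD1 buds, 0.66, 0.64 and 0.86 for Pitx1 at e11.0, and 0.73, 0.83 and 0.91 in the e11.5 libraries). A fit with the number as a block is therefore given where it changes a named member's call or a list's count, and other members are only counted. Replicates 1 and 2 also correlated across numbers (0.41 to 0.85). Whether a number marks a litter is not given in the sources used here.

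Gene lengths come from GENCODE M21 (GRCm38), which matched 13513, 13998 and 13457 listed genes, and mRNA length is the median over a gene's basic protein-coding transcripts. Shared windows are 50-base stretches of those transcripts found on either strand of a transcript of another annotated gene. Promoters come from RefSeq. Genes were named where they passed, had one of the 5 largest changes, were the highest or lowest of their complex or belonged to an isoform group. Ndufa10, Ndufv1, Ndufv2, Ndufb10, Sdhb, Cox5a, Cox6c, Uqcr10, Uqcrc2, Atp5a1, Atp5c1, Atp5j2, Atp5l, Ndufa3, Atp5d, Atp5f1, Polrmt, Polg and genes named only for a motif or a sign were chosen after their values were seen. The own values of 1 member are not reported here, though counts and sums include it. The members and all lists were chosen with earlier results of these data known. Alternatives covered scaling, pseudocount, low-value filter, run term, block, exon length, the authors' tests and leaving out each library.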

Additional observations from a re-analysis of the deposited data

Results flagged for a closer look

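In the members given here all 3 same-numbered pairs of Pitx1 null and wild type hindlimb lay on one side of 0 at e11.0 and all 3 on the other side at e11.5. Log2 fold changes at e11.0 and e11.5 were -0.17 and 0.09 for Uqcrc1, a core protein of complex III. They were -0.16 and 0.07 for Atp5a1 and -0.10 and 0.09 for Atp5d, both of the ATP synthase head. Under trimmed-mean scaling the e11.0 values were closer to 0, at -0.08 for Uqcrc1 and Atp5a1 and -0.02 for Atp5d, and the authors' deposited table has -0.03 for Atp5d. Atp5s, which is named with complex V and is not a subunit, had 0.29 and -0.15. None passed an adjusted p of 0.05 in limma at either stage, and the difference between stages was not tested, since the tables were normalized separately. Outliers were not looked for in groups of 3.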

How the results depend on the processing

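Counts of called members depended on the fit in each comparison, while no median of the members changed sign under any alternative run. A count given without the share of all genes called in the same fit is not a result about the members. In CD1, where the count was 3, no run term and an exon length correction with the replicate block gave 0, the replicate block 1 and the authors' deposited table gave 5, and leaving out 1 library gave 0 to 7. At e11.0, where it was 12, trimmed-mean scaling gave 25, median-ratio scaling 31, the replicate block 25, the exon length correction with the block 19 and the authors' deposited table gave 34. No run term and replicates 1 and 2 alone gave 0, and leaving out 1 library gave 0 to 42. The median at e11.0 was 0.232 with trimmed-mean and 0.246 with median-ratio scaling, against 0.150 without either. At e11.5, where the count was 1, a mean CPM of at least 5, no run term and replicates 1 and 2 alone gave 0, the authors' table gave 8, and leaving out 1 library gave 0 to 11. Without 1 library the medians ranged from 0.056 to 0.121 in CD1, 0.094 to 0.184 at e11.0 and 0.024 to 0.106 at e11.5. The cause of these shifts was not tested, except that fits without a library or a run have fewer samples. Median-ratio scaling at e11.5 called 1 member higher and none lower. The planned edgeR and DESeq2 fits on recovered reads were not run. Depth limits the low members most: Cox6b2 had 1.02 to 10.6 CPM over all libraries, and Atp5s 2.23 to 4.93.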
